A study of Mus musculus with 10 samples.

Results

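The 84 genes described here encode the proteins of the cytosolic ribosome and their paralogs, among them Rpl3l, the striated-muscle paralog of Rpl3. They were chosen by symbol alone (Rpl or Rps with a number and, where present, a suffix a, x, y, l or l1, plus Rplp0 to Rplp2 and Rpsa, pseudogene symbols left out) from the 25239 gene symbols of the deposited tables. By role, 30 are proteins of the small (40S) subunit, 43 of the large (60S) subunit, 3 form the P-stalk of the large subunit and 8 are paralogs with the suffix l or l1. The name rule misses ribosomal proteins with symbols of another form, such as Fau and Rack1. It also takes in Rpl32l and Rps4l, which GENCODE annotates as a processed and a transcribed processed pseudogene.

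The samples were cardiomyocytes of wild-type mice, 5 libraries from atria and 5 from ventricles, with no treatment, age or strain named in the labels. Total RNA was sequenced after random-primed library construction. No label says whether each library of a chamber is a different animal, so the p-values here reflect variation among libraries and part of it may be technical.

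Each cytosolic ribosome joins a 40S subunit, which reads the messenger RNA, to a 60S subunit, which forms the peptide bonds. Its proteins are needed in near-equal numbers, and their messenger RNAs begin with a pyrimidine-rich stretch through which growth signals control their translation. In heart and skeletal muscle, Rpl3l can take the place of Rpl3, a core 60S protein near the peptidyl transferase centre, and Rpl3 is the form used in other tissues.

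Rpl3l (ENSMUSG00000002500) lies on the plus strand at chr17:24727820-24736143 and Rpl3 (ENSMUSG00000060036) on the minus strand at chr15:80077791-80091868 of GRCm38, both protein-coding. Because the result on this pair depends on telling its transcripts apart, the stretch where they are most alike is shown. It lies in coding exon sequence, in exon 2 of both transcripts, at chr15:80082396-80082465 (minus strand) for Rpl3 and chr17:24728434-24728503 (plus strand) for Rpl3l, from GENCODE release M21. Capitals mark the longest run of bases identical in both, 22 bases, and 57 of the 70 positions are the same.
Rpl3: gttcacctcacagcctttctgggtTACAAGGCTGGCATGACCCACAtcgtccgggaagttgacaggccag
Rpl3l: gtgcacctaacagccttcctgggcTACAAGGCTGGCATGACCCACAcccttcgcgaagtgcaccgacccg
No stretch of 50 bases of the longest Rpl3l coding transcript occurred in a transcript of any other gene (0%), whereas 85.6% of the stretches of Rpl3 did, in 26 other genes. Reads of Rpl3 can therefore be shared with other annotated copies, while an exact 50-base match assigns a read to Rpl3l alone.

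Start-site sequence is shown for Rpl3l and for 2 members chosen because their windows hold letters common in this family, Rps7 and Rps21. Whether these letters go with the chamber difference was not tested. Each window runs from 45 bases before to 15 after the start that RefSeq gives (GRCm38.p6), at chr17:24727781-24727840 (plus strand), chr12:28635939-28635998 (minus strand) and chr2:180257334-180257393 (plus strand). Capitals mark CAGCTG, a form of E-box, in Rpl3l, and CCGGAAG or its reverse complement, letters read by ETS factors such as GABP, in the other genes.
Rpl3l: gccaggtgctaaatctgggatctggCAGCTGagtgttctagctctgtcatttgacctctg
Rps7: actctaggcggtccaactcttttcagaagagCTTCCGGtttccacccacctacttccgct
Rps21: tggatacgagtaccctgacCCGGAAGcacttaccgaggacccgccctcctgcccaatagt
Of the members, 63 had a RefSeq promoter entry of 300 bases. CCGGAAG, searched on both strands, was in 39.7% of these genes and in 9.93% of the 27025 genes with an entry. The pyrimidine run CTCTTTC was in 27.0% against 9.28%, TATAAA in 12.7% against 15.7% and CAGCTG in 6.35% against 18.3%. The letters of no motif contain those of another, and a match describes the sequence without showing that a factor binds it.

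Values are normalized reads, which are read counts divided by a size factor for each library. The libraries fell into 2 sets that the labels do not name. Replicates 1 and 2 of both chambers held 1790402 to 4445287 reads, of which the ribosomal RNA precursor Rn45s took 0.215 to 0.480%. Replicates 3 to 5 held 11163805 to 12842635 reads, of which Rn45s took 23.1 to 29.8%. All 10 cardiomyocyte markers checked, Myh6 and Tnnt2 among them, were detected. Their median log2 difference, atrial minus ventricular, was -0.31, and 2 of 10 were higher in ventricular cells, 6 of 10 when same-numbered libraries were compared. The 5 atrial and 5 ventricular markers each passed the test toward their own chamber. Epicardial markers differed in the same libraries: 6 of 6 were higher in atrial cells (summed 2561 to 6066 normalized reads against 332 to 1703). Smooth muscle and pericyte markers summed to 1647 to 6469 normalized reads across the atrial libraries against 8964 to 15443, and 2 of 6 were higher in ventricular cells, as were 2 of 8 fibroblast markers. Of the tested endothelial and macrophage markers, 2 of 7 and 1 of 2 were higher in atrial cells. When same-numbered libraries were compared, 3 of 6 smooth muscle and pericyte markers were higher in ventricular cells and 1 in atrial cells. By that comparison, 3 of 8 fibroblast markers were higher in ventricular cells and 3 of 7 endothelial markers in atrial cells. Of the early-response genes induced by cell dissociation, 1 of 9 was higher in atrial cells, and 5 of 9 when same-numbered libraries were compared. The part of these marker differences in the results below was not tested.

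Rpl3l was at 9.65, 8.64, 12.5, 16.5 and 17.4 normalized reads in atrial replicates 1 to 5. In the ventricular libraries it was at 27.7, 9.75, 64.4, 65.5 and 66.7. The ventricular library was higher in 5 of 5 same-numbered pairs, but the groups overlapped because ventricular replicate 2 lay within the atrial range. The group means were 12.9 ± 3.94 and 46.8 ± 26.4 (SD, n = 5), a ratio of 3.62. The log2 difference, atrial minus ventricular on the log2(normalized reads + 1) scale, was -1.53 ± 0.50 (SE), and it missed the threshold in limma's test across all genes (adjusted p = 0.0689). On the recovered reads it passed by edgeR (adjusted p = 0.0111) and DESeq2 (adjusted p = 0.000449). With the replicate number as a block, limma's difference passed (adjusted p = 0.00659).

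Fewer reads of Rpl3l were counted in the shallow libraries, and the part of depth in its difference there was not tested. Rpl3l rested on 7 and 6 reads in atrial and 8 and 4 reads in ventricular replicates 1 and 2, against 22 to 28 and 98 to 108 reads in replicates 3 to 5. Within replicates 3 to 5 the ratio was 4.24 and the log2 difference -2.03 (adjusted p = 1.03e-10). Within replicates 1 and 2 the ratio was 2.05 and the log2 difference -0.79 (adjusted p = 0.694). A test of whether these differences were unequal did not pass (adjusted p = 0.226). Without ventricular replicate 2 the difference over all other libraries was -1.999 (adjusted p = 0.00319). Leaving out any other single library, the difference did not pass limma's test (adjusted p = 0.0732 to 0.162).

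Rpl3 was at 2070, 2388, 1814, 1736 and 1622 normalized reads in atrial libraries and at 2142, 2628, 1888, 1910 and 1761 in ventricular libraries. The ranges overlapped almost wholly, although each ventricular library was the higher of its pair. Its log2 difference was -0.10 ± 0.15 (adjusted p = 0.769, and 0.218 with the replicate block).

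Rpl3l made up a larger part of the pair's reads in most ventricular libraries. Its share of Rpl3l plus Rpl3 reads was 0.464, 0.360, 0.684, 0.942 and 1.06% in atrial replicates 1 to 5 and 1.28, 0.370, 3.30, 3.31 and 3.65% in ventricular ones. The exact 95% binomial interval, which covers counting error only, ran from 0.101 to 0.944% in ventricular replicate 2 and from 3.003 to 4.39% in ventricular replicate 5. The mean share was 0.702% in atrial and 2.38% in ventricular libraries, a difference of -1.68 points. An exact two-sided permutation test over the 10 libraries gave p = 0.0556, where the smallest p that 5 against 5 allows is 0.00794. The share was higher in the ventricular library of 5 of 5 same-numbered pairs, and an exact paired permutation test, chosen after seeing the data, gave p = 0.0625, the smallest that 5 pairs allow. Without ventricular replicate 2, the library that made the shares overlap, the unpaired exact test gave p = 0.0159. Leaving out any other single library gave p of 0.0635 to 0.111 in that test. Per exon length, Rpl3l stood at 7.87 normalized reads per kb in atrial and 28.5 in ventricular libraries, and Rpl3 at 607 and 651, so that Rpl3 was the more abundant transcript in both chambers.

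**Figure D1:**
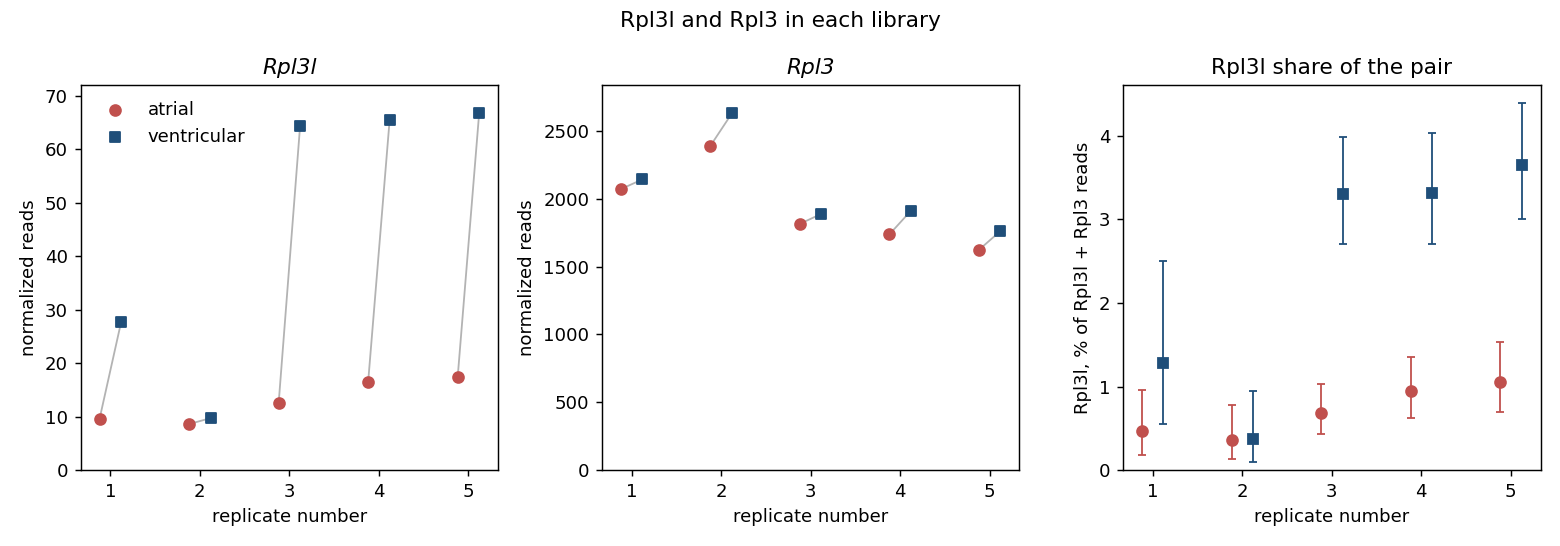
Normalized reads of Rpl3l (left) and Rpl3 (middle) in each library by replicate number, with lines joining same-numbered atrial (circles) and ventricular (squares) libraries, and Rpl3l as a percent of the pair's reads (right) with exact 95% binomial intervals. Ventricular replicates 3 to 5 stand at 64.4 to 66.7 normalized reads of Rpl3l, while ventricular replicate 2, at 9.75, sits with the atrial libraries.

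Among the ribosomal protein genes as a whole, most estimates leaned a little toward the ventricle and few passed the test without pairing. A mean of at least 10 normalized reads was required for testing, which 80 of the 84 members met. Of these 80, 77 had a negative log2 difference, against 51.3% of all genes tested. The median over the 80 was -0.31, against -0.01 over the 12422 genes tested. In the unpaired fit, 1 member of the 80 was higher in ventricular cells (6.56% of all genes were called in that direction) and 0 were higher in atrial cells (8.12% of all genes). At an unadjusted p under 0.05, 14 of 80 members (17.5%) leaned to the ventricular side and 0 to the atrial side, against 12.6% and 13.5% of all genes. On the recovered reads, edgeR called 2 members higher in ventricular cells (7.29% of all genes) and DESeq2 called 7 (9.84%), with 0 in the other direction by either tool (8.77 and 11.0% of all genes).

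With the replicate number as a block, 46 of the 80 were higher in ventricular cells (16.0% of all genes) and 0 in atrial cells (16.3% of all genes; 1 at an unadjusted p under 0.05). With the library set as a term in place of the block, 40 were higher in ventricular cells (15.8% of all genes). Within replicates 3 to 5 alone, 64 were higher in ventricular cells (26.6% of all genes) and 0 in atrial cells (26.2%). Within replicates 1 and 2 alone, 0 members passed in either direction (2.04% and 3.09% of all genes; at an unadjusted p under 0.05, 5 of 80 (6.25%) were on the ventricular and 1 on the atrial side, against 7.85% and 10.2% of all genes), with a median log2 difference of -0.21. In bulk samples, fewer cells of a type and less RNA per cell cannot be told apart.

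By pair, the median log2 difference of the members was -0.26, -0.15, -0.17, -0.48 and -0.46 in pairs 1 to 5, while that of all genes stayed between -0.03 and 0.00. The ventricular library was the higher for 61, 65, 71, 80 and 79 of the 80 members in these pairs. Over all genes tested it was the higher for 50.1, 52.3, 50.5, 49.7 and 50.1%. The ventricular library was higher in 5 of 5 pairs for 50 members (20.7% of all genes), in 4 for 19, in 3 for 9 and in fewer for 2, Rpl30 and Rpl10.

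**Figure D2:**
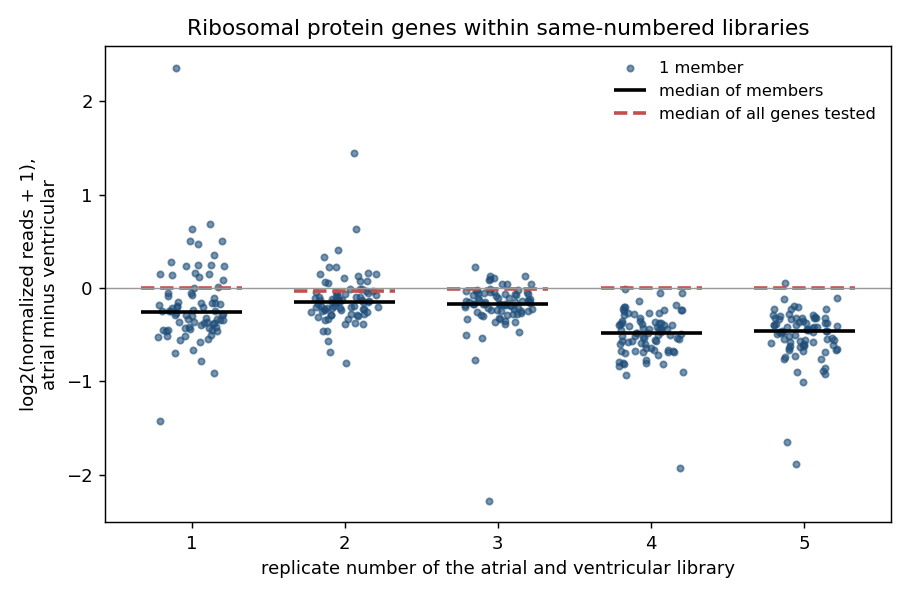
Log2 difference (atrial minus ventricular, log2(normalized reads + 1)) of each tested member within each pair of same-numbered libraries; the black line is the median of the 80 members and the dashed line the median of all genes tested. The medians of the members lie below those of all genes in each pair, furthest in pairs 4 and 5 (-0.48 and -0.46).

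The member that passed without pairing was Rplp2 (ENSMUSG00000025508, chr7:141447370-141451585, plus strand), an acidic stalk protein that helps recruit elongation factors. It was at 818, 698, 865, 675 and 684 normalized reads in atrial libraries and at 868, 1124, 1053, 1189 and 1058 in ventricular ones. All ventricular libraries lay above all atrial ones, although ventricular replicate 1 did so by a narrow margin. The means were 748 ± 87.5 and 1058 ± 120 (SD, n = 5), a ratio of 1.42, with a log2 difference of -0.50 ± 0.12 (adjusted p = 0.0167, and 0.00929 with the block). The Rplp2 difference did not pass limma's test (adjusted p = 0.0510) without atrial replicate 4, without atrial replicate 5 (0.0501) or with libraries scaled to equal totals (0.114). Nor did it pass at equal totals without Rn45s and Lars2 (adjusted p = 0.0600) or within replicates 1 and 2 alone (adjusted p = 0.381).

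The stalk holds 2 more proteins. Rplp0, which anchors the stalk to the subunit, was at 1218, 1670, 1266, 1186 and 1113 normalized reads across atrial and 1284, 1877, 1620, 1677 and 1560 in ventricular libraries. The ranges overlapped through atrial replicate 2, and its log2 difference was -0.32 ± 0.14 (adjusted p = 0.178, and 0.0180 with the block). Rplp1, the partner of Rplp2, was at 1552 to 6867 normalized reads across atrial and 2252 to 8716 in ventricular libraries, with its highest values in replicates 1 and 2 of both chambers. Its difference of -0.27 ± 0.50 did not pass without the block (adjusted p = 0.832) or with it (adjusted p = 0.0969). It reversed to 0.05 without ventricular replicate 2.

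In the small subunit, 29 of 30 members were tested, and every estimate of these 29 was below 0 (median -0.32). The unpaired fit called 0 of them higher in ventricular cells (6.56% of all genes). At an unadjusted p under 0.05 it held 3 (10.3%, against 12.6% of all genes). The blocked fit called 20 (69.0%, against 16.0% of all genes). Rps15a, chosen here after its values were seen, was the other member whose libraries did not overlap between the chambers. It was at 374, 410, 444, 415 and 418 normalized reads across atrial and 512, 448, 498, 583 and 537 in ventricular libraries, a log2 difference of -0.32 ± 0.10 (adjusted p = 0.0605, and 0.0158 with the block). Over all genes tested, 6.55% did not overlap with the ventricle above and 7.84% with the atrium above.

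Rpsa, a 40S protein also known as the laminin receptor, was at 3176, 4279, 2012, 1961 and 1976 normalized reads across atrial and 3986, 4753, 2850, 3139 and 2959 in ventricular libraries. Each ventricular library exceeded its partner while the ranges overlapped. Its log2 difference of -0.45 ± 0.25 did not pass unpaired (adjusted p = 0.295) and passed with the block (adjusted p = 0.00456). Rps27a, made as a fusion with ubiquitin, behaved alike, with a difference of -0.45 (adjusted p = 0.210, and 0.00598 with the block). Rps24, Rps26 and Rps29, named after their values were seen, had differences of -0.47, -0.50 and -0.45, which passed with the block (adjusted p = 0.00512, 0.0215 and 0.0492) and not without it. Within replicates 3 to 5, Rps24 and Rps26 passed (adjusted p = 0.000796 and 0.0128) and Rps29 did not (adjusted p = 0.238).

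In the large subunit, 42 of 43 members were tested, 39 estimates were negative and the median was -0.29. The unpaired fit called 0 of them higher in ventricular cells (6.56% of all genes). At an unadjusted p under 0.05 it held 5 (11.9%, against 12.6% of all genes). The blocked fit called 21 (50%, against 16.0% of all genes). Rpl36, named after its values were seen, had the largest estimate of the subunit. It was at 390, 530, 314, 286 and 261 normalized reads across atrial and 619, 668, 434, 549 and 415 in ventricular libraries. Each ventricular library was higher than its partner, and the groups overlapped between the sets of libraries. Its log2 difference was -0.61 ± 0.21 (adjusted p = 0.0820, and 0.00156 with the block). Rpl23a, at the exit of the peptide tunnel, and Rpl13, also named afterwards, differed by -0.52 and -0.47 (adjusted p = 0.00599 and 0.00415 with the block, 0.160 and 0.203 without).

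Rpl5 and Rpl11 form, with 5S ribosomal RNA, the particle that can bind Mdm2 and stabilize p53. Rpl5 was at 2143 to 5376 normalized reads across atrial and 2627 to 5884 in ventricular libraries, and Rpl11 at 481 to 946 and 639 to 1048. Their log2 differences were -0.20 (adjusted p = 0.788, and 0.0309 with the block) and -0.22 (adjusted p = 0.616, and 0.0506 with the block). Rpl4, one of the most abundant members per length at 3078 normalized reads per kb, differed by -0.20 (adjusted p = 0.393, and 0.0316 with the block).

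The 3 members with positive estimates were Rpl37a, Rpl10 and Rpl34, and none of them passed. Rpl10, which joins the 60S subunit late in its assembly, was at 735, 869, 785, 800 and 709 normalized reads across atrial and 474, 561, 716, 804 and 685 in ventricular libraries. Ventricular replicates 1 and 2 were the lowest of the 10. Its log2 difference was 0.29 ± 0.15 (adjusted p = 0.255, and 0.0897 with the block), and it was 0.06 within replicates 3 to 5. Rpl37a differed by 0.04 (adjusted p = 0.957). Rpl34 stood at 0 to 18.7 normalized reads, and its estimate of 0.33 ± 0.79 turned to -0.35 within replicates 3 to 5.

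**Figure D3:**
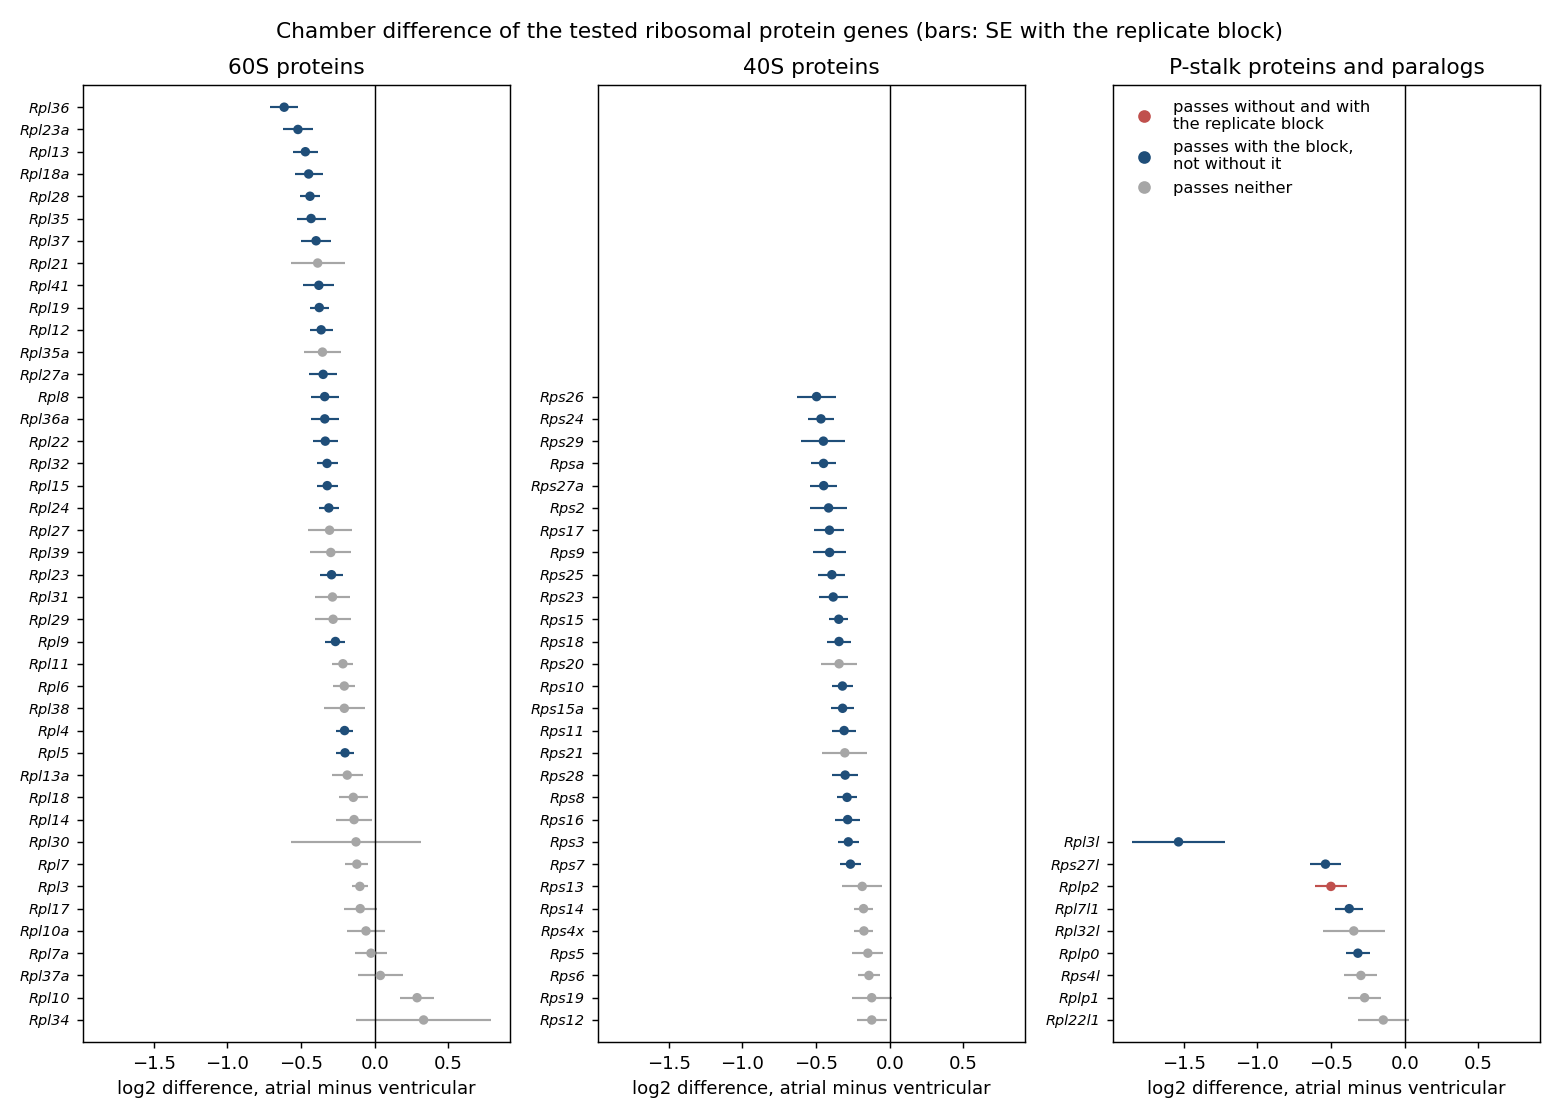
Log2 difference (atrial minus ventricular) of the 80 tested members in 60S proteins, 40S proteins, and stalk proteins with paralogs; points are estimates, bars the SE with the replicate block, and colours show which fit each member passed. Rplp2 is the member that passes both fits, Rpl3l has the largest difference (-1.53), and 77 of the 80 points lie left of 0.

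Of the 8 paralogs, 6 were tested, and 0 passed unpaired toward the ventricle (6.56% of all genes). At an unadjusted p under 0.05 there were 4 of 6 (12.6% of all genes). With the block 3 of 6 passed (16.0% of all genes). Besides Rpl3l, these were Rps27l, a p53-inducible form of Rps27, and Rpl7l1. Rps27l was at 73.1, 77.7, 115, 106 and 88.2 normalized reads across atrial and 100, 136, 145, 170 and 118 in ventricular libraries. The groups overlapped between 100 and 115 normalized reads, and the log2 difference was -0.54 ± 0.18 (adjusted p = 0.0773, and 0.00608 with the block). Rpl7l1 differed by -0.38 (adjusted p = 0.150, and 0.0174 with the block), while its partner Rpl7 differed by -0.12 (adjusted p = 0.777, and 0.285 with the block).

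Rpl22l1, the partner of Rpl22, was at 23.0 to 60.1 normalized reads across atrial and 19.5 to 72.8 in ventricular libraries and differed by -0.15 (adjusted p = 0.899, and 0.570 with the block). Rpl22 itself differed by -0.33 (adjusted p = 0.767, and 0.0185 with the block). Rps4l and Rpl32l, annotated as pseudogenes, differed by -0.30 and -0.35 and did not pass with the block (adjusted p = 0.0765 and 0.252). Rps4l lies within Tmtc1 and Rpl32l overlaps Map7, each with a higher mean value, so reads of these genes cannot be told apart with certainty. Their parents Rps4x and Rpl32 differed by -0.17 and -0.32 (adjusted p = 0.0710 and 0.00932 with the block). Rpl39, whose paralog was below the filter, differed by -0.30 (adjusted p = 0.542, and 0.139 with the block).

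Below the filter were Rpl10l, Rpl39l, Rpl26 and Rps27. Rpl10l, a testis form of Rpl10, was at 2.76 normalized reads across atrial and 3.46 in ventricular replicate 1 and at 0 in the other libraries. By library, the 3 reads that a count of 0 still allows are worth 1.70 to 10.4 normalized reads. Rpl39l ranged from 0 to 4.14 normalized reads. Rpl26 was at 0 in 9 libraries and at 0.618 in ventricular replicate 5, and Rps27 ranged from 1.14 to 15.8. Rpl30 and Rpl34 passed the filter but were also low, at 3.78 and 4.53 normalized reads per kb, where the median tested member stood at 430. Rpl26, Rpl30 and Rps27 share 47.4, 79.2 and 63.1% of their 50-base stretches with transcripts of other genes. Rpl34 shares 6.93%, with 9 other genes. Only the longest coding transcript of each gene was measured (1232 bases for Rpl34), so the share of a shorter transcript can differ. Over 82 members the shared percentage and the mean level per kb had a Spearman rho of 0.26, a description across genes that share libraries and are not independent.

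The summed reads of the members were 1.38, 1.87, 0.942, 0.803 and 0.727% of all reads in atrial and 1.62, 1.98, 0.904, 1.095 and 0.989% in ventricular libraries. The ventricular library was higher in 4 of 5 pairs. With Rn45s and Lars2, a gene that collects ribosomal RNA reads, left out of the total, it was higher in 5 of 5, at 1.39, 1.88, 1.24, 1.15 and 1.04% against 1.63, 1.98, 1.31, 1.54 and 1.36%. The ratio of summed 60S to summed 40S normalized reads was 1.998 to 2.05 in atrial and 1.82 to 1.98 in ventricular libraries, the atrial library being the higher in 5 of 5 pairs. These sums are given as a description without a test.

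Mean levels in the sets of libraries were apart for some members, in directions that varied by gene. A higher mean in replicates 1 and 2 was seen for 56 tested members, 15 of them by more than 2-fold. The mean was higher in replicates 3 to 5 for 24, of which 3 passed 2-fold. Rpl37 was 4.36 times as high in replicates 1 and 2 (2449 against 561 normalized reads), Rps2 3.65 times and Rplp1 3.02 times. Rpl3l was 2.91 times as high in replicates 3 to 5 (40.5 against 13.9 normalized reads), Rpl22l1 2.42 times and Rpl28 2.28 times. The chamber difference was not shown to differ between the sets for any member. Limma's test of this called 0 of 80 members, against 647 of the 12422 genes tested. At an unadjusted p under 0.05 there were 8 of 80 members, against 2509 of the 12422 genes.

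**Figure D4:**
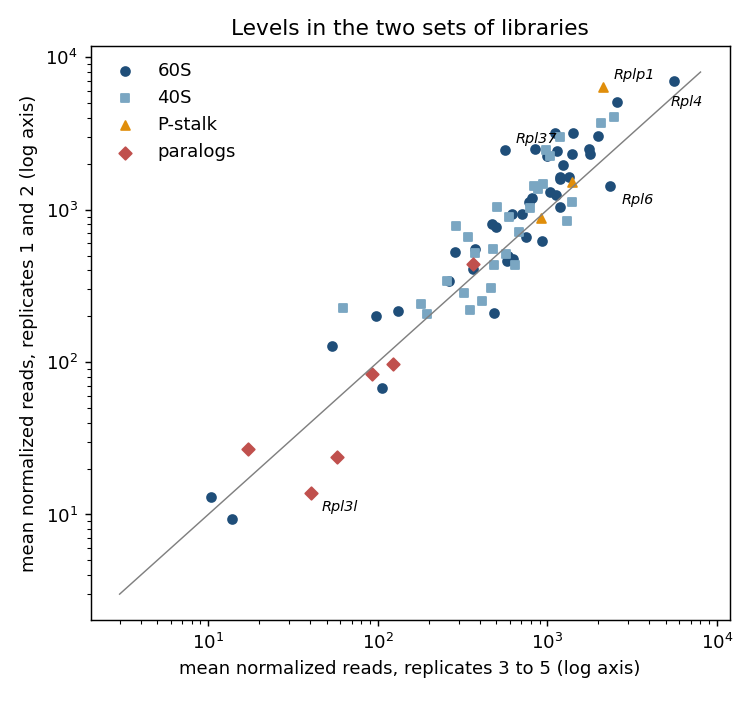
Mean normalized reads of each tested member in replicates 3 to 5 (x axis, log scale) and replicates 1 and 2 (y axis, log scale), by role; the line marks equal levels. Rplp1 and Rpl37 lie above the line and Rpl3l and Rpl6 below it.

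Other genes of translation were read from 2 lists. Of 46 genes of cytosolic translation (initiation and elongation factors and their partners), 3 were higher in ventricular cells in the unpaired fit (6.56% of all genes) and 18 with the block (16.0%). In atrial cells 0 were higher by either fit (8.12% of all genes unpaired and 16.3% with the block). The median log2 difference was -0.18. The 3 called in the unpaired fit were Eif4a1, the helicase of the cap-binding complex, Eif2s2, a subunit of the factor that carries the initiator tRNA, and Eif1ax, which supports scanning. Eif2s2 was at 669, 759, 920, 832 and 814 normalized reads across atrial and 969, 982, 1141, 1109 and 1195 in ventricular libraries, without overlap. Its log2 difference was -0.44 ± 0.11 (adjusted p = 0.0261), and those of Eif4a1 and Eif1ax were -0.44 and -0.33 (adjusted p = 0.0327 and 0.0319). Each of the 3 lost its call when some single libraries were left out, with adjusted p reaching 0.0722, 0.0889 and 0.0921.

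Eef1a2, the muscle and neuron form of the elongation factor that delivers aminoacyl-tRNA, parallels Rpl3l as a tissue paralog. Its share of Eef1a1 plus Eef1a2 reads was 3.81, 3.47, 12.9, 13.5 and 12.8% in atrial and 5.97, 7.42, 16.2, 14.5 and 15.3% in ventricular libraries, higher in the ventricular library of each pair and lower in replicates 1 and 2 of both chambers. Its log2 difference was -0.56 ± 0.28 (adjusted p = 0.241, and 0.0131 with the block), whereas Eef1a1 differed by -0.03 (adjusted p = 0.965).

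Of 46 genes of ribosome biogenesis, 3 were higher in ventricular cells in the unpaired fit (6.56% of all genes) and 0 in atrial cells (8.12% of all genes). With the block 15 were higher in ventricular cells (16.0% of all genes) and 1, Rrp1, in atrial cells (16.3% of all genes). The median log2 difference was -0.23. Rrs1, an assembly factor that helps bring the 5S particle of Rpl5 and Rpl11 into the 60S precursor, had the largest difference. It was at 81.4, 72.0, 68.7, 72.5 and 84.3 normalized reads across atrial and 187, 163, 136, 140 and 126 in ventricular libraries, which did not overlap, a ratio of 1.99 and a log2 difference of -0.97 ± 0.14 (adjusted p = 0.000895). Polr1a, the catalytic subunit of RNA polymerase I, and Ddx21, a nucleolar helicase, differed by -0.50 and -0.40 (adjusted p = 0.0311 and 0.0293). Their adjusted p reached 0.0805 and 0.0639 when single libraries were left out, while that of Rrs1 stayed at or below 0.00407.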

How the data were processed

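RNA of 5 atrial and 5 ventricular cardiomyocyte libraries was sequenced from total RNA (ScriptSeq v2 kit). Trimmomatic, HISAT2 and featureCounts were used on GRCm38 (mm10), per the submitters' processing notes. The sources used here do not give software versions, the annotation, the strand setting or the treatment of reads with several matches. Per the file headers, the deposited signal is a gene's read count over the DESeq2 size factor of its library. Dividing by the value of 1 read gave whole reads within 0.01 for 100% of values, 1790402 to 12842635 per library.

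Genes averaging 10 or more normalized reads (12422) were tested with limma 3.58.1 (R 4.3.3, trend and robust variance, two-sided) on log2(normalized reads + 1), and p-values were adjusted over all genes by Benjamini-Hochberg (threshold 0.05). For genes with few reads this scale understates a change. The fit had no block. Deviations of same-numbered libraries from their chamber means correlated at 0.582, 0.637, 0.623, 0.556 and 0.631. All were above 0.1, and the numbers were taken as pairs. Correlations between different-numbered libraries were not computed, so these values cannot tell pairing by number from the split into library sets. A blocked value stands beside each result whose call it alters. The labels name no shared animal or day. edgeR 4.0.16 and DESeq2 1.42.0 were run on recovered reads, and scipy 1.17.1 gave exact permutation tests.

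Members, gene lists and tests were chosen with earlier results of these data known. The naming rule took the paralog pairs, stalk proteins, Rpsa, Rpl5, Rpl11, Rps27a, called members, the 3 highest and 3 lowest tested members, members below the filter, the 4 largest called genes of each translation list, Eef1a1, Eef1a2, Rn45s and Lars2. Positions come from GENCODE M21. No protein sequences were used here.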

Additional observations from a re-analysis of the deposited data

Results flagged for a closer look

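Of 90 groups of 5 libraries examined for 45 genes, 7 held a library far from the others, and chance flags about 1 in 20 groups. Rplp0 stood at 1670 normalized reads and Rpl7l1 at 499 in atrial replicate 2, each above the other atrial libraries. Ddx21 stood at 1177 normalized reads in ventricular replicate 2, above the other ventricular libraries. Rpl34 stood at 0 in ventricular replicate 1, where 3 reads equal 10.4 normalized reads. Rpl10l stood at 2.76 normalized reads in atrial replicate 1 and 3.46 in ventricular replicate 1, and Rpl26 at 0.618 in ventricular replicate 5, each 1 or 2 reads against 0 in the rest of the group.

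The chamber difference of Eef1a2 differed between the sets of libraries. It was -0.31 within replicates 3 to 5 and -0.94 within replicates 1 and 2, a gap of 0.63 on the log2 scale that passed limma's interaction test (adjusted p = 0.0417).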

How the results depend on the processing

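Alternatives were run on 39 genes under 21 settings (819 values): 669 kept their side of the threshold and direction, 65 newly passed, 57 no longer passed and 28 reversed. The number of members higher in ventricular cells was 1 in the unpaired fit, 46 with the replicate block, 40 with the library set as a term, 64 within replicates 3 to 5, 0 within replicates 1 and 2, 2 by edgeR, 7 by DESeq2 and 0 when scaled to equal totals without Rn45s and Lars2. It ranged from 0 to 6 when single libraries were left out: 6 without atrial replicate 2, 4 and 3 without ventricular replicates 1 and 2, and 0 without atrial replicate 4 or 5. The share of all genes called is not given here for the rescaled, unfiltered and leave-one-out settings. Counts under those settings, here and below, therefore cannot be set against a share over all genes. Called translation genes, both directions together, numbered 18 with the replicate block, 19 with the set term, 28 within replicates 3 to 5 (26 toward the ventricle, 2 toward the atrium), 1 within replicates 1 and 2 and 5 by DESeq2. They numbered 0 without a filter or at equal totals, 1 without Rn45s and Lars2, and 0 to 4 leaving out single libraries (0 without atrial replicate 4 or 5 or ventricular replicate 3, 1 without atrial replicate 3 or ventricular replicate 2, 4 or 5). Called biogenesis genes, both directions together, numbered 16, 15, 23, 1 and 7 under the first 5 of these settings. The counts of 16, 15, 23 and 7 each held 1 call toward the atrium. Biogenesis calls numbered 1 without a filter or at equal totals, and 1 to 4 leaving out single libraries (1 without atrial replicate 3, 4 or 5). The Rpl3l difference was -1.53 and passed with the replicate block or the set term, -2.03 within replicates 3 to 5, -1.88 by edgeR and DESeq2 (both passing), and -1.47 at equal totals (adjusted p = 0.0485), and ranged from -1.999 to -1.34 without single libraries. Its share difference then ranged from -2.18 to -1.36 points, and per length from -4.07 to -2.54. Reversed estimates, none past the threshold, were Eef1a1 at equal totals (0.036, and 0.025 without Rn45s and Lars2), Rpl22l1 (0.039) and Rpl30 (0.84) within replicates 1 and 2, and Rpl34 within replicates 3 to 5 (-0.35), by edgeR (-0.17) and by DESeq2 (-0.19). Leaving out single libraries also reversed Eef1a1 (-0.18 to 0.094), Lars2 (-1.28 to 0.77), Rn45s (-1.33 to 0.96), Rpl22l1 (-0.41 to 0.049), Rpl30 (-0.39 to 0.17), Rpl34 (-0.47 to 0.63) and Rplp1 (-0.58 to 0.050). The cause of these changes was not tested. In replicates 1 and 2, Rpl3l rested on 4 to 8 reads per library, so its values there are imprecise.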
